A study of Homo sapiens with 7 samples.

Results

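The HA signal that was left on chromatin after 4 h of dTAG47 was compared with that left after 2 h, over every site in the deposited count table. The comparison covers 4 of the 7 CUT&RUN samples of the series, 2 at each time, chosen by the labelled treatment time, and 5782 sites on 24 chromosomes, all of which span 400 bases from start to end. All samples were Rh4 cells, an established rhabdomyosarcoma line, in which the fusion protein PAX3-FOXO1 is labelled as carrying an FKBP degron and an HA tag. The 2 h and 4 h groups were crosslinked and given 500 nM dTAG47, and the crosslinked DMSO group (2 samples) served as the reference for the untreated profile. The labels do not say whether the tagged cells were 1 clone or whether libraries came from separate cultures, so p-values reflect only how far these libraries differ, and that difference may be technical.

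PAX3-FOXO1 is the driver fusion of alveolar rhabdomyosarcoma. It pairs the paired-box and homeobox DNA-binding domains of PAX3 with the transactivation domain of FOXO1, and it sits mainly at distal enhancers of myogenic and neural genes. dTAG molecules recruit an E3 ligase to an FKBP-tagged protein, which is then destroyed by the proteasome. In CUT&RUN an antibody, here against HA, tethers a nuclease that cuts out the DNA beneath the bound protein, so the read count at a site follows how much tagged protein sat there plus whatever background cleavage the site gives. No library without the antibody was analysed here, so the count that an empty site would give is unknown. The table names no genes, and no genome or annotation of its hg19 build was used, so sites are given by hg19 position as the file writes it, where the first base may be off by 1.

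No site was called as changed between 2 h and 4 h, and the reads in sites at 4 h lay between the totals of the 2 h libraries. The 2 h library A held 228300 reads in the sites and the 2 h library B held 110440. The 4 h columns A and B held 151360 and 156845 reads, so both fell inside the gap between the 2 h libraries. A chi-square test over the 5575 tested sites found no difference between the 4 h columns beyond sampling noise (1.01 for each degree of freedom, p = 0.24). They were therefore treated as 1 sample, with a mean of 154102.5 reads. The 2 h pair was far apart by the same measure (1.96), with a mean of 169370 ± 83340 reads (SD, n = 2).

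The 4 h mean was 91.0% of the 2 h mean. Set against each 2 h library alone, the direction turned: the 4 h mean was 0.675 times the 2 h library A and 1.395 times the 2 h library B. Log totals, with the 4 h columns kept apart, gave p = 1.0 in a two-sided exact permutation test, whose lowest possible p with 2 columns in each arm is 0.333. Without the 20 sites of highest mean count, the 4 h mean was 89.8% of the 2 h mean, so these sites did not set the ratio. Reads outside the sites were not counted in the table, and a lower total cannot be told apart from shallower sequencing.

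**Figure D1:**
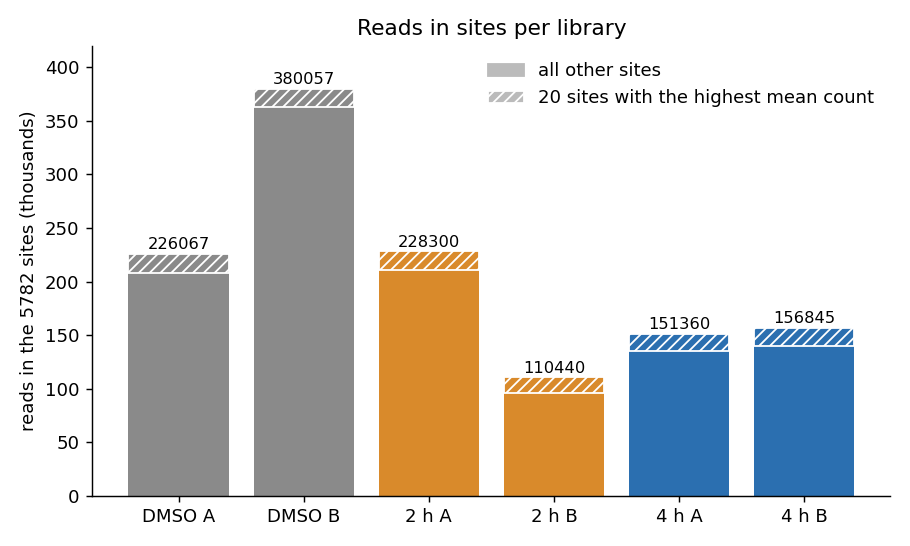
Reads in the 5782 sites (vertical axis, as labelled) for each library, with the part held by the 20 sites with the highest mean count hatched. The 4 h columns (151360 and 156845) stand between the 2 h libraries (228300 and 110440), while the hatched part is of similar height in all 6 libraries.

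The 20 highest sites behaved differently from the rest. At 2 h they held 17913 reads in library A and 15013 in library B, and at 4 h 16493 and 17019, near the 17745 and 17474 reads of the DMSO libraries. Over the remaining sites the 2 h library A had 2.20 times the reads of the 2 h library B, against 1.19 times at the 20 highest. The 20 sites therefore took 7.85% of the 2 h library A (95% exact binomial interval 7.74 to 7.96%, counting error only), 13.6% of the 2 h library B (13.4 to 13.8%), and 10.9% of each 4 h column (10.7 to 11.1% in column A). In this share, too, the 4 h columns lay between the 2 h libraries. Whether the reads at the 20 sites came from tagged protein or from background cleavage was not tested.

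At single sites the order of the raw counts followed the totals, and that of the shares did not. Of the 5575 sites kept by the count filter (207 were removed), both 4 h columns lay at or between the 2 h counts at 3651 (65.5%). Both lay below both 2 h libraries at 330 sites (5.92%) and above both at 166 (2.98%), where 0% of the sites were called by the edgeR test of raw counts. The 2 h library A exceeded the 2 h library B at 96.5% of the sites. In shares of each library's total, which take out the difference in totals, both 4 h columns lay at or between the 2 h libraries at 1106 sites (19.8%). Both lay below both 2 h libraries at 956 sites (17.1%) and above both at 914 (16.4%), where 0% were called by the relative test. On this scale the numbers below, between and above were thus of similar size.

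No site passed the test for a change from 2 h to 4 h. The test was edgeR's quasi-likelihood test in a fit that also held the DMSO libraries, with the 4 h columns summed to 1 library and p-values adjusted by Benjamini-Hochberg over 5575 sites. In raw counts, 0 sites were called and 1 had an unadjusted p under 0.05. DESeq2 called 0 with 1, and limma-voom 0 with 8. On the relative scale, where TMM scaling sets each site against the typical site, 0 sites were called and 258 (4.63%) had an unadjusted p under 0.05, of which 139 were lower and 119 higher at 4 h. DESeq2, scaled on median ratios in place of TMM, called 0 with 6, and limma-voom with TMM 0 with 346.

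The width of the intervals says what the absence of calls allows. On the relative scale the median site had a standard error of 0.34 (log2) and a 95% interval reaching 0.69 to either side. At 3069 sites (55.0%) the whole interval lay within a 2-fold change, and at 5444 (97.7%) within a 4-fold change, so a 4-fold shift in share was outside the interval at nearly every site while a change under 2-fold was not resolved at many. In raw counts the interval was far wider, reaching 2.14 to either side at the median site. It lay within a 2-fold change at 128 sites (2.30%) and within a 4-fold change at 712 (12.8%). Both counts include sites with a fitted raw change of 0, where the standard error, computed from that change, was also 0. An interval without width sets no bound, so fewer sites than these were bounded in raw counts. A further 114 sites gave no raw interval. Raw counts therefore set almost no bound on a change at a single site. For a change common to all sites, the limit is the gap between the totals of the 2 h libraries (228300 and 110440 reads). The fitted coefficient of variation between libraries was 45.4% for raw counts and 12.7% on the relative scale, each with 2 residual degrees of freedom, and the lone 4 h library was assumed to vary like the others.

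**Figure D2:**
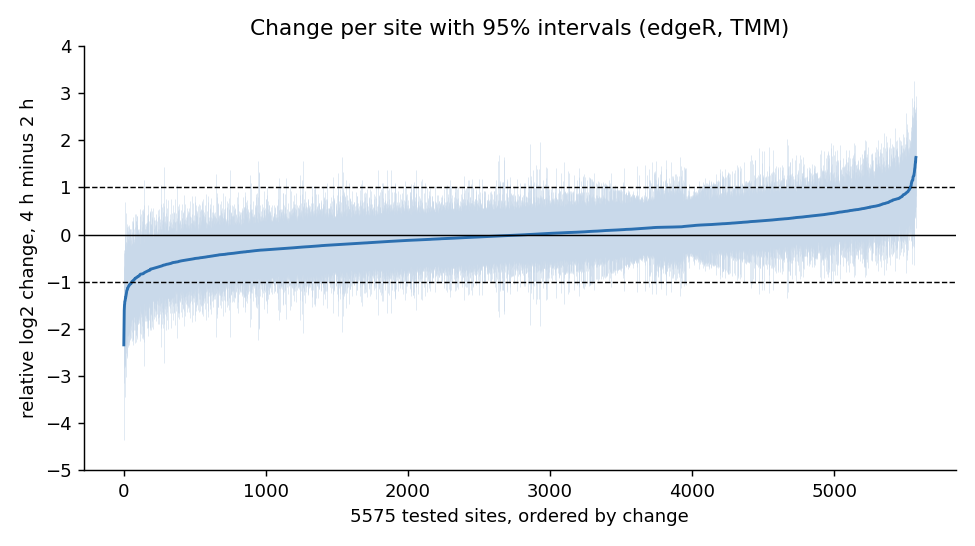
Relative log2 change from 2 h to 4 h at each of the 5575 tested sites, ordered by size (dark line), with its 95% interval (pale bars); dashed lines mark a 2-fold change. The central 90% of the sites ran from −0.65 to 0.61, and 3069 intervals stayed between the dashed lines.

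The relative changes were narrow, with a centre near 0 that TMM scaling sets. The median was −0.01 (log2), the middle of the distribution ran from −0.24 to 0.22 between the quartiles, and 95 sites exceeded a 2-fold change in either direction. The median raw change was −0.17. Compared with the 2 h library A alone it was −0.63, with a lower fitted count at 4 h at 90.8% of the sites, and compared with the 2 h library B alone it was 0.53, with a lower count at 13.3%. The raw direction thus turned with the 2 h library used. The relative median was −0.02 against A and −0.01 against B, but the scaling holds it near 0. In shares of the library totals, without TMM, the median log2 change to pooled 4 h was −0.07 from A and 0.02 from B. In the fits against A or B alone each time is 1 library and the spread comes from the DMSO pair alone. The raw directions therefore restate the library totals. Neither fit called a site in either scale. With unadjusted p under 0.05, the raw fit gave 32 sites against A, of which 30 were lower at 4 h, and 63 against B, all higher at 4 h.

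The spread between libraries was larger within 2 h than between 2 h and 4 h. It was measured as the coefficient of variation of a site's share between 2 libraries after counting noise was taken out. Over the 5575 sites it was 41.1% between the 2 h libraries, 23.9% between the 2 h library A and the pooled 4 h columns, and 16.9% between the 2 h library B and the pooled 4 h columns. The 20 highest sites weigh heavily in these values. Without them the spread was 19.0% within 2 h, 11.6% from A to 4 h and 11.5% from B to 4 h. It was 3.21% between the 4 h columns and 12.7% between the DMSO libraries. With 1 value for each pair of libraries, the order of these values has no test.

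The distance of the treated libraries from DMSO depended on the 20 highest sites. Over all 5575 sites the 2 h library A differed from the DMSO library A by 10.3%, less than from pooled 4 h or from the 2 h library B, and from the DMSO library B by 34.7%. Without the 20 highest sites its spread was 19.7% and 21.7% from the DMSO libraries A and B, more than its 11.6% from pooled 4 h. That of the 2 h library B was 25.7% and 35.7%. The pooled 4 h columns lay at 25.3% and 31.6%. Over all sites the values were 40.1% and 79.5% for the 2 h library B and 24.4% and 60.3% for pooled 4 h.

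**Figure D3:**
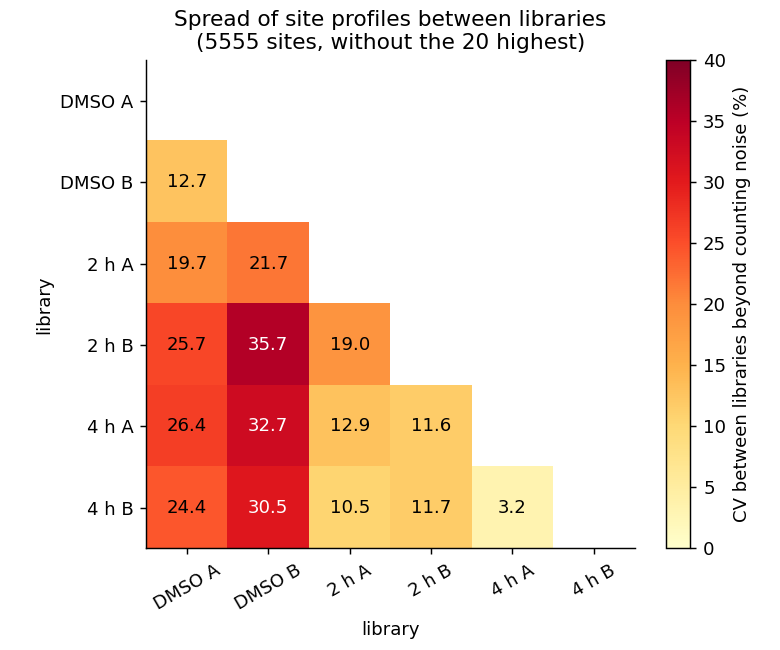
Coefficient of variation of site shares between each pair of libraries in percent, beyond counting noise, over 5555 sites without the 20 highest. The 2 h libraries differ by 19.0%, each differs from the 4 h columns by 10.5 to 12.9%, and the 4 h columns differ from each other by 3.2%.

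Across sites, which share libraries and are not independent replicates, the log share of a site at 4 h had a Pearson r of 0.909 with the 2 h library A and 0.859 with the 2 h library B (n = 5575 sites, 0.5 reads added, 4 h columns pooled). The 2 h libraries had an r of 0.841 with each other. Depth enters these values: the 4 h columns, which differed only by counting noise, had an r of 0.872. The median site of the 2 h library B held 13 reads, against 28 in A and 18 in each 4 h column. Accordingly 2.73% of the sites differed in share by more than 2-fold between the 2 h library A and pooled 4 h, 6.53% between B and pooled 4 h, 7.93% between the 2 h libraries and 6.15% between the 4 h columns themselves.

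**Figure D4:**
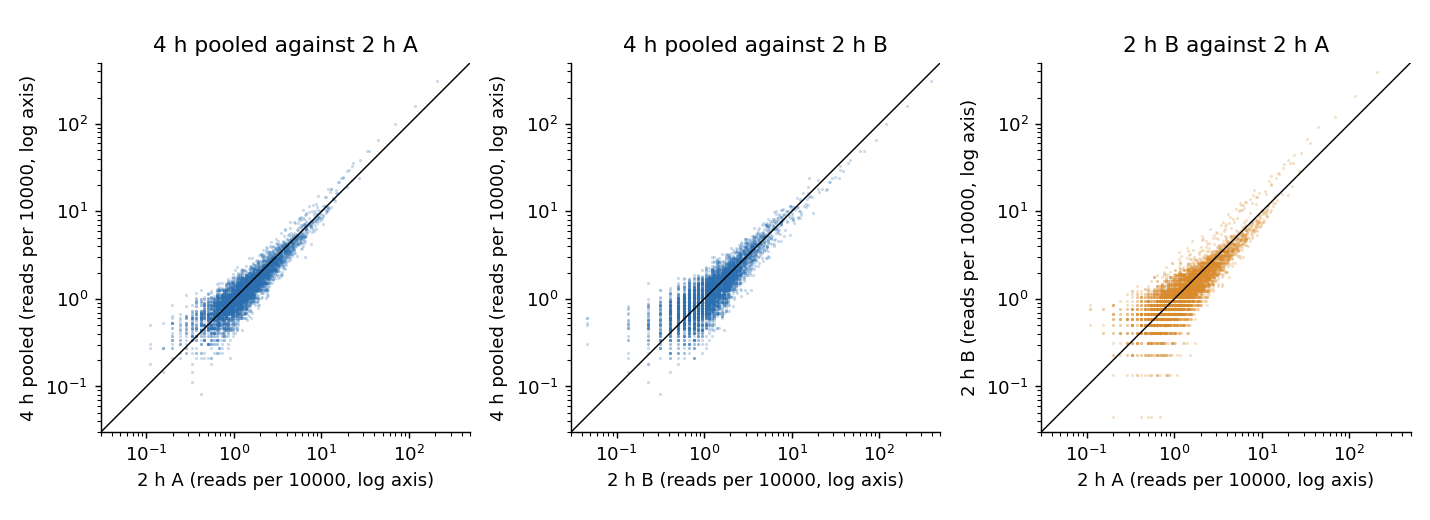
Share of each library's reads at 5575 sites on log axes, for pooled 4 h against the 2 h library A, pooled 4 h against the 2 h library B, and the 2 h library B against A; the line marks equal shares. The highest sites lie above the line in the first and the third panel and below it in the second, in keeping with their 7.85%, 13.6% and 10.9% of the reads.

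Whether the sites that lost most by 2 h went on losing was read on libraries that did not choose them. Sites with a mean DMSO count of at least 10 were put in 5 equal classes by the change in share from DMSO to one 2 h library, and the other 2 h library was then set against 4 h. DMSO counts entered the choice, so the DMSO shares of the outer classes lean away from the treated ones, but the step from the other 2 h library to 4 h used none of the values that made the classes. Each step rests on 1 library at 2 h and 1 sample at 4 h, and has no test.

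Ordered by the 2 h library A, the 1111 sites with the largest loss held 17.8% of the DMSO reads. They held 10.6% of the 2 h library B (95% exact interval 10.4 to 10.8%) and 10.2% of pooled 4 h (10.1 to 10.3%), so the 4 h share was 0.964 times the 2 h share. At 55.8% of these sites the share was lower at 4 h than in the 2 h library B, with a median log2 change of −0.08. In classes 2 to 5 it was lower at 45.0 to 47.5% of the sites. The 4 h columns taken singly gave 10.2% and 10.3%.

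Ordered by the 2 h library B, the 1111 sites with the largest loss held 19.4% of the DMSO reads, 13.6% of the 2 h library A (13.4 to 13.7%) and 12.2% of pooled 4 h (12.1 to 12.3%). The 4 h share was 0.898 times that of the 2 h library A. The share was lower at 4 h at 64.1% of the sites, with a median log2 change of −0.14. Read on A, a fall was not particular to this class. The share was lower at 60.7%, 58.8% and 57.3% of the sites in classes 2 to 4, and at 45.2% in class 5. Over all tested sites the median log2 change from A was −0.07. In the class with the largest loss, the step from 2 h to 4 h was smaller when read on B than when read on A. The step from DMSO to 2 h is not set against it, since the choice of the classes enlarges that step.

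In the class that had lost least, the direction differed between the arrangements. Ordered by the 2 h library A, it held 37.1% of the 2 h library B (36.8 to 37.4%) and 35.3% of pooled 4 h (35.2 to 35.5%), a ratio of 0.952. Ordered by the 2 h library B, it held 26.6% of the 2 h library A (26.4 to 26.8%) and 31.3% of pooled 4 h (31.2 to 31.5%), a ratio of 1.18. Both values rested in part on the 20 highest sites: without them the ratios were 1.04 and 1.09, so the first turned direction, while those of the class with the largest loss were 0.965 and 0.898.

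**Figure D5:**
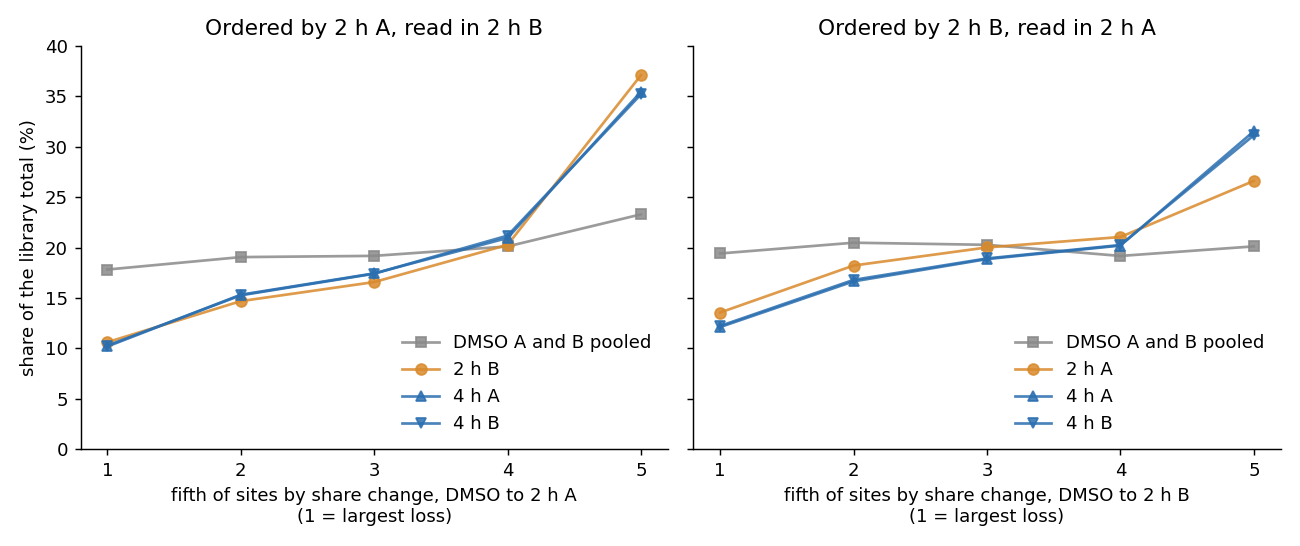
Share of the library total in percent for 5 equal classes of sites ordered by the change in share from DMSO to the 2 h library A (left) or B (right), with 1 the largest loss; squares are pooled DMSO, circles the other 2 h library, and triangles the 4 h columns. In class 1 the 4 h triangles nearly cover the circle of the 2 h library B on the left (10.6% and 10.2%), and on the right lie below those of the 2 h library A in class 1 (13.6% and 12.2%) and above them in class 5 (26.6% and 31.3%).

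Few sites were empty at either time. Counts of 0 occurred at 9 sites in the 2 h library A, 24 in B and 15 in each 4 h column, of 5782. Sites with 5 reads or fewer numbered 165 and 702 at 2 h and 365 and 352 at 4 h, against 110 and 99 with DMSO. These numbers depend on depth. Expected after binomial thinning of every library to the total of the 2 h library B, they were 729 and 702 at 2 h, 758 and 752 at 4 h, and 413 and 622 with DMSO. At equal totals in the sites, which need not mean equal sequencing depth, nearly empty sites were thus more frequent in every treated library than in either DMSO library. They were also slightly more frequent in both 4 h columns than in both 2 h libraries. No error was computed for these numbers, so this small gap was not tested, and no conclusion on further loss is drawn from it.

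Site strength, spacing and chromosome divided the sites little in the fit over both 2 h libraries. In 3 equal classes by mean DMSO count, a value that the step from 2 h to 4 h does not use, the median relative log2 change was 0.03 for the weakest sites, −0.02 for the middle class and −0.03 for the strongest sites. The strongest class had a median log2 change in share of −0.12 against the 2 h library A and 0.05 against B, again with the sign set by the library. Sites under 10 kb from another site (801), 10 to 100 kb away (2436) and over 100 kb away (2338) had median relative changes of 0.01, −0.01 and −0.01. Summed over sites, the share of the class under 10 kb at pooled 4 h was 1.12 times that in the 2 h library A and 0.916 times that in B. For the class from 10 to 100 kb these ratios were 0.944 and 1.05, and for the class over 100 kb 0.988 and 1.01. Sums give most weight to the sites with most reads. The median log2 changes in share of the 3 classes, in this order, were −0.02, −0.08 and −0.06 against A. Against B they were −0.02, 0.05 and 0.003.

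Among the chromosomes other than Y, medians ran from −0.05 on chromosome 20 (189 sites) to 0.11 on chromosome 22 (71 sites). The median log2 change in share ran from −0.13 to 0.03 against the 2 h library A and from −0.09 to 0.18 against B. The 19 tested sites on chromosome Y had nearly level raw counts, as the 20 highest sites did. They summed to 407 and 401 reads in the 2 h libraries and 381 and 397 in the 4 h columns, against 464 and 356 with DMSO. Their median share was therefore higher at 4 h than in the 2 h library A (log2 0.50) and lower than in the 2 h library B (−0.69), and the relative fit over both libraries gave 0.02.

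Sites that were level between the DMSO libraries were also closer to level among the treated ones. In a division chosen after the data were seen, the 5555 sites without the 20 highest were put in 5 equal classes by the ratio of DMSO B to DMSO A. In the class with the lowest ratio (1.10 in pooled counts) the 2 h library A had 1.67 times the reads of B, and the 4 h mean was 0.755 times A and 1.26 times B. In the other 4 classes, with DMSO ratios from 1.49 to 2.34, the 2 h ratio was 2.28 to 2.36, and the 4 h mean was 0.628 to 0.650 times A and 1.47 to 1.49 times B. The 4 h mean lay between the 2 h libraries in all 5 classes.

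The sites with the most DMSO reads show the level pattern one by one. Their counts were also close to those with DMSO, and whether they came from tagged protein or background cleavage was not tested. At chr1:121484990-121485390 the 2 h library A held 4740 reads and B 4330, and the 4 h columns held 4720 and 4715. The DMSO libraries held 4842 and 4496 there, 1048 and 1014 at the site on chromosome 9, and 825 and 735 at that on chromosome 2. At chr9:66971000-66971400 there were 1006 in each 2 h library and 1029 and 988 at 4 h. At chr2:92269319-92269719 the 2 h counts were 754 and 748 and the 4 h counts 721 and 784. Counts at these sites were thus close across times, although the 2 h library totals differed 2.07-fold. At chr7:61968821-61969221 (2671 and 2297 at 2 h, 2413 and 2540 at 4 h) and chr6:58778181-58778581 (1580 and 1322, then 1508 and 1537) the 4 h columns lay between the 2 h libraries. With DMSO the counts were 2639 and 2368 at the first and 1637 and 1394 at the second.

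The largest relative falls from 2 h to 4 h were sought among the 2638 tested sites with a mean of at least 20 reads over the 4 columns. Both 4 h columns lay below both 2 h libraries in share, with the fitted change of the same sign, at 418 of them and above both at 413. The lowest was chr20:55605916-55606316, with 42 (A) and 17 (B) reads after 2 h, then 13 and 11 after 4 h, against 27 and 41 with DMSO (relative log2 change −1.13, SE 0.33, 95% interval −1.81 to −0.46). A second site on the same chromosome, chr20:22341961-22342361, had 44 (A) and 18 (B) reads after 2 h, then 16 and 10 after 4 h, against 53 and 107 with DMSO. Its relative change was −1.09, and both 2 h counts were already below both DMSO counts.

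At chr10:9602805-9603205 the counts went from 62 and 137 with DMSO to 54 (A) and 32 (B) after 2 h, then 18 and 20 after 4 h. At chr3:54291059-54291459 they went from 57 and 107 to 54 and 22 and then 18 and 15, and at chr14:68841850-68842250 from 74 and 123 to 52 and 18 and then 16 and 15. At all 5 falls both 4 h columns also lay below both 2 h libraries in raw counts. Both 2 h libraries lay below both DMSO libraries at the sites on chromosomes 10, 3 and 14, as at chr20:22341961-22342361. The relative changes at the sites on chromosomes 10, 3 and 14 were −1.04, −1.04 and −0.9997, with unadjusted p from 0.0018 to 0.0036 (edgeR). The 5 falls were chosen as the largest of many, and the smallest adjusted p over all tested sites was 1 (edgeR), so none is distinguished from the spread between libraries.

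The 5 largest relative rises were of similar size. At chr14:68613785-68614185 there were 24 (A) and 14 (B) reads after 2 h, then 28 and 43 after 4 h, against 29 and 64 with DMSO (relative log2 change 1.05, SE 0.30, 95% interval 0.44 to 1.65). At chr3:86512543-86512943 there were 21 (A) and 9 (B) reads after 2 h, then 23 and 30 after 4 h, against 26 and 37 with DMSO. At chr4:16068612-16069012 there were 23 (A) and 8 (B) after 2 h, then 27 and 26 after 4 h, against 25 and 52. At these sites the 4 h counts exceeded both 2 h counts but not both DMSO counts.

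The remaining rises were chr18:3247415-3247815, with 22 (A) and 13 (B) reads after 2 h, then 33 and 26 after 4 h, and chr19:41256663-41257063, with 27 (A) and 13 (B) after 2 h, then 30 and 36 after 4 h. The relative changes of these 4 rises ran from 0.88 to 0.97, with unadjusted p from 0.0045 to 0.0063. As with the falls, none passed after adjustment.

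The deepest losses at 2 h left few reads to lose. Among the 1975 sites with a mean DMSO count of at least 50, the 5 with the lowest share in the 2 h library A relative to DMSO were read on the 2 h library B and on 4 h. The site chr8:72515578-72515978, with 44 and 73 DMSO reads, had 5 in the 2 h library A, 3 in B and 5 and 15 at 4 h. At chr7:103292378-103292778 (35 and 81 with DMSO) there were 7 in A, 5 in B and 2 and 10 at 4 h. At chr4:80074716-80075116 (54 and 104) there were 10 in A, 6 in B and 7 and 6 at 4 h. All 3 sites had few reads in each treated library, and in shares of the library both 4 h columns lay below B only at the site on chromosome 4.

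At chr6:151863861-151864261 (58 and 87 with DMSO) there were 10 in A, 4 in B and 10 and 12 at 4 h, and at chr1:62729302-62729702 (44 and 85) there were 9, 6 and then 6 and 13. Relative to the 2 h library B the log2 change in share at these 5 sites ran from −0.43 to 1.07, with 3 above 0. At counts this low a further fall could hardly be seen.

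The 5 sites with the lowest share in the 2 h library B were read on the 2 h library A in the same way, and 2 of them, on chromosomes 8 and 6, are described above. At chr5:42855673-42856073 (99 and 163 with DMSO) there were 4 reads in B, 31 in A and 11 and 7 at 4 h. At chr17:27378220-27378620 (35 and 93) there were 2 in B, 16 in A and 2 and 6 at 4 h. At chrX:73452756-73453156 (32 and 71) there were 2 in B, 18 in A and 8 and 5 at 4 h. At these 3 sites the 4 h columns lay below A and at or above B, and the log2 change in share from A ran from −1.39 to −0.89. These sites were chosen for their low share in B, so a low B is set by the choice. At the sites on chromosomes 8 and 6 the 4 h counts were not between the 2 h counts as a pair.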

How the data were processed

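CUT&RUN against HA was read from 6 columns of raw counts per site, which the authors deposited without normalization; 0 further value columns were left aside. The submitters' processing notes name hg19 and list DiffBind, deepTools, DESeq2, Bowtie2, Genrich 0.6.1 and Trimmomatic 0.32. How each was run, whether duplicate reads were removed and how sites were chosen is not given in the sources used here. Columns carry a treatment and a letter not tied to a replicate number; both DMSO columns were assigned to the crosslinked group, since no other DMSO group has 2 samples, and the DMSO sample without crosslinking was not analysed here.

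Sites passed filterByExpr (minimum count 10, minimum total 15). Counts were tested with edgeR 4.0.16 (R 4.3.3), treatment as the only term, at an adjusted p under 0.05: raw with equal library sizes (a summed pair of columns given double size), relative with TMM on totals in sites. The 4 h columns were summed because their chi-square p exceeded 0.05. The standard error is the log2 change over the square root of F. Shares used 0.5 added reads where logged. Depth in sites ran from 110440 to 380057 reads. Alternatives were limma-voom (limma 3.58.1), DESeq2 1.42.0, left-out libraries, a block, no filter and other scalings. The fits and the spread measure were tested on simulated data. Python 3.11.15 with scipy 1.17.1 gave the other values.

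Named sites were the 5 lowest and 5 highest relative changes among sites with a mean of at least 20 reads and both 4 h columns on the same side of both 2 h libraries in share as the fitted change, the 5 highest in DMSO, and the 5 lowest shares of each 2 h library to DMSO among sites with a mean DMSO count of at least 50. The comparison, classes and rules were chosen with earlier results of these data known. The planned gene loci and motifs were not run, because no genome of the hg19 build was used here.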

Additional observations from a re-analysis of the deposited data

How the results depend on the processing

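The counts of called sites were 0 in raw counts and on the relative scale in all 32 alternative fits run over both scales, including either 2 h library left out. A count of 0 from so few libraries is no sign of stability. A replicate block by column letter, with the 4 h columns apart, gave 0 calls on either scale. The letters did not pair libraries: the log ratio of A to B had a correlation of −0.204 for DMSO and 2 h, 0.0127 for DMSO and 4 h, and −0.00748 for 2 h and 4 h. The 10 sites with the largest relative changes had the same direction in all 180 refitted values, which their choice favours, and none passed the threshold. The lowest adjusted p among these 180 values was 0.671 (edgeR, with the 4 h columns as separate libraries). This minimum covers the 10 sites only, and other sites had lower adjusted p-values in some fits.

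The median raw log2 change of −0.17 ran from −0.63 to 0.53 with 1 library left out, and was −0.16 scaled on the 20 highest sites. With limma-voom it was −0.05, with 55.8% of the sites lower at 4 h in place of 66.8%. The ratio of 4 h to 2 h totals ran from 0.675 to 1.395. The spread between 2 h and 4 h was 0.496 times that within 2 h, and 0.610 times without the 20 highest sites. The highest minus the lowest DMSO class differed by −0.07 in median relative change, and by −0.04 with classes by the mean of all columns. Leaving out the 20 highest sites from the fits and from the loss classes, and the classes by DMSO ratio, were chosen after the data were seen. Depth limits single sites most in the 2 h library B, with a median of 13 reads.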
